A study of Mus musculus with 18 samples.

Results

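Complement is a set of blood and tissue proteins that cut and activate each other in a chain. In the classical pathway the protease C1r activates its partner C1s, which cuts C4 and C2. The resulting enzyme cuts C3, the component on which the classical, lectin and alternative routes meet. Complement factor B serves the alternative route, C1 inhibitor blocks C1r and C1s, and CD59 stops the pore of the last components from forming on a cell's own membrane. In the brain, astrocytes and microglia both make complement proteins, and C3 is widely used as a mark of inflamed astrocytes.

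The 7 genes described here encode the proteases C1r (C1ra) and C1s (C1s1), the central components C4 (C4b) and C3 (C3), factor B (Cfb), C1 inhibitor (Serping1) and CD59 (Cd59a). They were chosen by name, as 7 of the 54838 genes of the count table, and C3 was chosen on its measured rise with TNF (tumour necrosis factor, an inflammatory cytokine). Its levels with TNF are therefore given as a description, with no test. The other 50 genes of a complement list of 57 served as background.

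The cultures came from neural stem cells isolated at embryonic day 14 from the ventricular zone, each isolation using 1 brain of a wild-type C57BL/6J mouse. There were 6 groups of 3 libraries. NSPs (neurospheres, floating aggregates of proliferating stem cells) were kept with 20 ng/ml EGF and no serum. The other groups were grown on coated plates in 10% FBS, which drives astrocytic differentiation, in 5 conditions: untreated for 24 h, 72 h or 1 week, and with 50 ng/ml TNF for 24 h or 72 h. TNF was combined with 24 h and 72 h only, and serum, plate coating and the loss of EGF changed together between NSPs and the other groups. Genotype and embryonic day were common to all groups. The methods say in general that data came from 3 or more independent biological experiments, but neither they nor the labels tie the libraries to brains or cultures, so p-values measure only the spread between these samples.

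Ribosome-depleted total RNA was sequenced, and the 18 libraries held 12509693 to 22549627 counts (median 16794798). The methods give RNA quality only as a wide range that reaches low values, not per library, and its part in the results was not tested. Levels below are CPM, the count scaled to a common library total after TMM normalization, given per library in the order of replicates 1, 2 and 3 or as mean ± SD (n = 3). A number of 3 counts corresponds to 0.132 to 0.244 CPM, the limit that a count of 0 allows in a library, and such limits and all counting intervals cover counting error only. A gene was called changed where edgeR's quasi-likelihood test, fitted over all 18 libraries, gave a Benjamini-Hochberg adjusted p under 0.05 over the 20067 genes that passed a filter on low counts. Log2 changes are given ± SE.

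Replicate 1 of both TNF groups stood apart. Mitochondrial genes took 6.24% of its counts at 24 h and 8.01% at 72 h, against 2.43% to 3.67% in replicates 2 and 3 with TNF. On the third principal component of the 1000 most variable genes it lay at 21.5 at 24 h, with replicates 2 and 3 at -0.28 and 0.80, and at 31.6 at 72 h, with replicates 2 and 3 at 18.4 and 17.8. Most results with TNF are therefore given both with and without these 2 libraries. The treatment showed in every TNF library at Nfkbia, which encodes an inhibitor of NF-kB and is a standard target of TNF: it was at 135 to 161 CPM at 24 h with TNF against 24.1 to 30.3 CPM without, and at 146 to 158 CPM against 16.02 to 26.6 CPM at 72 h.

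Before the levels, the sequence around the starts of these genes is shown, since the factors through which cytokines act on complement genes bind there. RefSeq windows were at hand for 4 of the 7 genes (C3, C1ra, C1s1 and Cd59a, on GRCm38.p6), but not for C4b, Cfb or Serping1. The 250 bases before each start were searched on both strands for the C/EBP motif TTGCNNAA, the STAT motif TTCNNNGAA, the interferon-stimulated motif GAAANNGAAA and the kappa-B motif of NF-kB. The 3 windows with a match are printed 5′ to 3′ on the strand of the gene, with the match in capitals. C3 lies at chr17:57203970-57228136 on the minus strand and its window at chr17:57228137-57228386. C1s1 lies at chr6:124530345-124542359 on the minus strand with its window at chr6:124542360-124542609, and Cd59a at chr2:104095801-104115354 on the plus strand with its window at chr2:104095551-104095800.
C3: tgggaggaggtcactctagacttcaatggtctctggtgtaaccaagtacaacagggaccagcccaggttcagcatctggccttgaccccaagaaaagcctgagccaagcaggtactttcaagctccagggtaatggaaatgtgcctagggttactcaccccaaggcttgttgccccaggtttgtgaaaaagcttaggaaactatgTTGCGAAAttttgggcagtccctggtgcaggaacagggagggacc
C1s1: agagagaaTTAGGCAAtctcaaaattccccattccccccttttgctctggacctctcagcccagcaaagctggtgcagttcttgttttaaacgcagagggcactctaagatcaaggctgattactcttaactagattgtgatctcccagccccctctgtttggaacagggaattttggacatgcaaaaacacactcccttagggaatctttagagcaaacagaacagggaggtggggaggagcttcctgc
Cd59a: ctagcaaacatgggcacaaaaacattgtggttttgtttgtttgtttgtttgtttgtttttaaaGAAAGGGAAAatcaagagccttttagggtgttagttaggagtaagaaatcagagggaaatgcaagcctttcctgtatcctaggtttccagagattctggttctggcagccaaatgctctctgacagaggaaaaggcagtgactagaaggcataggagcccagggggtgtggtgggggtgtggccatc

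The C3 window held 1 match, TTGCGAAA, a C/EBP motif from 45 to 38 bases before the start, which 9.56% of all 32851 windows of the table also held somewhere. Of the 2 windows listed for C1s1, the one at the start given above held the same motif on the opposite strand, as TTAGGCAA, farther out at 242 to 235 bases before the start. Cd59a had an interferon-stimulated motif, GAAAGGGAAA, 187 to 178 bases before its start, a motif found in 2.98% of all windows. No window of the 4 had the STAT motif (7.02% of all windows) or the kappa-B motif (3.9%), C1ra had no match, and no match overlapped another. A match describes these letters and is not evidence of binding.

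The 7 genes also differ in how far their reads can be told from those of other genes. C1ra (chr6:124512405-124523443, plus strand) and C1s1 are neighbours. C4b (chr17:34728380-34743882) and Cfb (chr17:34856374-34862518) lie on the minus strand of the same stretch of chromosome 17, and Serping1 lies at chr2:84765387-84775444 on the minus strand (all GRCm38, GENCODE M21). Of the stretches of 75 bases, the read length, in transcripts of C1ra, 42.4% occur also in transcripts of its paralog C1rb. For C4b 22.7% occur also in C4a, for C1s1 12.95% in C1s2, for Cd59a 1.66% in Cd59b, and for C3 and Serping1 none do. Of the exon bases of C1s1, 18.4% lie opposite an exon of another gene, and 99.8% of the 412 genes wholly covered by exons on the opposite strand alone were at 0 in all libraries. Whether reads from that stretch of C1s1 were counted was not tested.

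**Figure D1:**
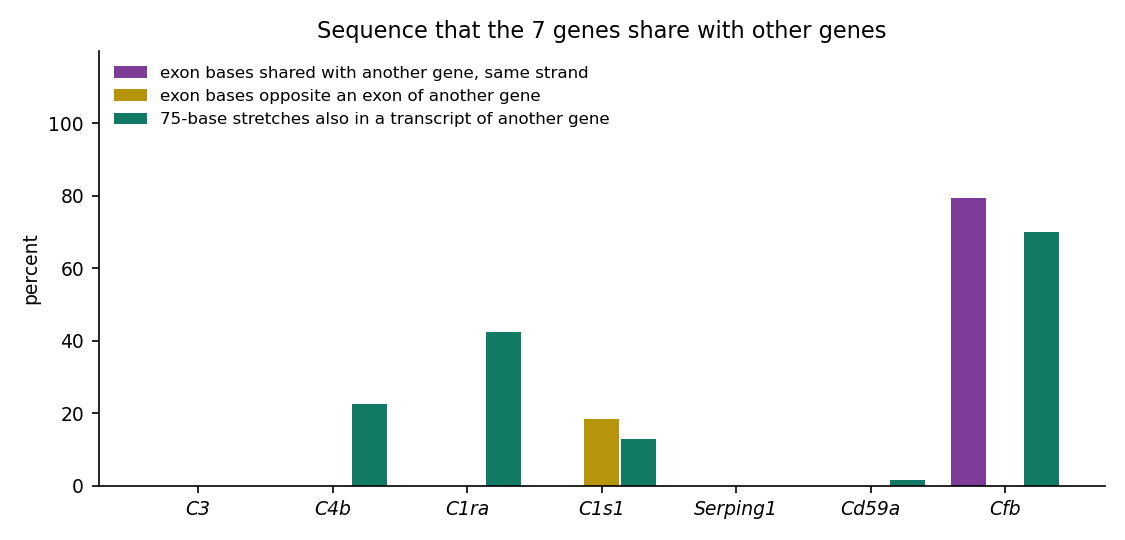
Percent of exon bases shared with another gene on the same strand (purple), percent lying opposite an exon of another gene (yellow) and percent of 75-base stretches found also in a transcript of another gene (green), for each of the 7 genes. Cfb stands out with 79.5% of its exon bases shared, and C3 and Serping1 have none on all 3 measures.

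Cfb could not be read as present or absent. The annotated gene Gm20547 shares its strand and covers 79.5% of the exon bases of Cfb, which leaves 579 bases that are its own, and it also covers 42.8% of those of C2, the neighbour that encodes the classical-pathway partner of C4. Gm20547 itself was at 0 in all 18 libraries. At 0 throughout were also 94.8% of the 596 genes wholly covered by exons of other genes on the same strand, against 34.5% of the 42374 genes with no shared base. The deposited count of Cfb was 38 over all libraries, at most 7 in 1 library and at most 0.398 CPM, and it did not pass the filter, so it was not tested.

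**Figure D2:**
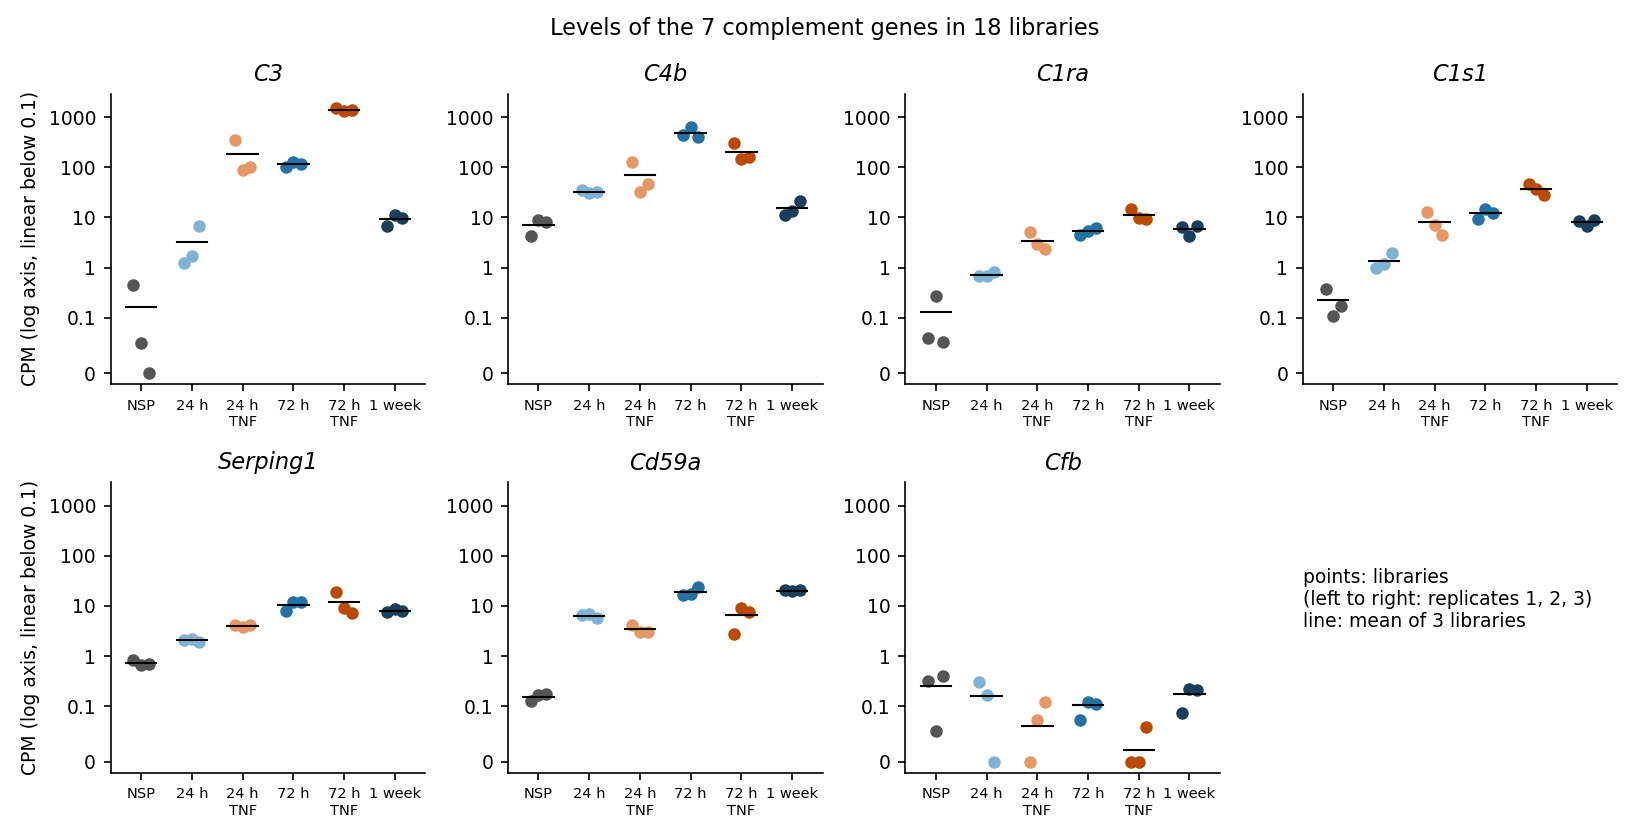
CPM of each gene (log axis, linear below 0.1) in the 18 libraries by group, with points from left to right for replicates 1, 2 and 3 and a line at the mean of the 3. C3 spans the widest range, from 0 in an NSP library to 1523 at 72 h with TNF, while Cfb stays at or below 0.398 throughout.

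C1ra, the gene of the protease that starts the classical cascade, was at 0.0634, 0.274 and 0.0568 CPM in NSPs and at 0.679, 0.670 and 0.814 CPM at 24 h. At 72 h it was at 4.38, 5.39 and 6.10 CPM, and at 1 week at 6.57, 4.22 and 6.68 CPM. TNF-treated cells had 5.10, 2.91 and 2.36 CPM at 24 h and at 14.9, 9.68 and 9.31 CPM at 72 h. NSPs were thus lowest and TNF at 72 h highest, each without overlap with the next group, and 24 h TNF, 72 h and 1 week overlapped as neighbours in that order.

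C1s1, the gene of the protease that C1r activates, followed nearly the same order. NSPs were at 0.380, 0.110 and 0.171 CPM, 24 h at 0.981, 1.17 and 1.95 CPM, 72 h at 9.15, 14.6 and 12.4 CPM and 1 week at 8.43, 6.68 and 9.003 CPM. Under TNF C1s1 was at 12.8, 7.001 and 4.54 CPM at 24 h and at 45.9, 37.1 and 28.3 CPM at 72 h. The 72 h TNF libraries all lay above every other library, and 1 week, 24 h TNF and 72 h overlapped. Per kilobase of exon, the level of C1s1 was 1.78 ± 0.465 times that of C1ra at 24 h, 2.18 ± 0.301 times at 24 h with TNF, 2.17 ± 0.355 times at 72 h, 3.16 ± 0.427 times at 72 h with TNF and 1.34 ± 0.152 times at 1 week. The lengths were not corrected for the stretches shared with paralogs, 42.4% for C1ra and 12.95% for C1s1, so these ratios may be too high or too low.

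C4b, the gene of C4, was at 4.18, 8.72 and 8.24 CPM in NSPs. It was at 34.9, 30.4 and 32.5 CPM at 24 h, at 451, 640.1 and 401 CPM at 72 h and at 11.1, 13.4 and 20.96 CPM at 1 week. The TNF libraries of C4b were at 131, 32.6 and 46.8 CPM at 24 h and at 314, 148 and 160.0 CPM at 72 h. Untreated cells at 72 h were highest, without overlap with 72 h TNF, and among neighbours in the order only 24 h and 24 h TNF overlapped.

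C3, the central component, was at 0.444, 0.0549 and 0 CPM in NSPs, which are 7, 1 and 0 counts. At 24 h it was at 1.21, 1.73 and 6.76 CPM, at 72 h at 103, 128 and 117.2 CPM and at 1 week at 6.71, 11.3 and 9.92 CPM. The TNF libraries were at 356, 89.5 and 104 CPM at 24 h and at 1523, 1361 and 1378 CPM at 72 h. The 3 libraries of 72 h TNF lay above all others, 24 h overlapped 1 week, and of the 24 h TNF libraries replicate 1 lay above the 72 h libraries, replicate 2 below and replicate 3 among them.

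Serping1, the gene of C1 inhibitor, was at 0.824, 0.658 and 0.682 CPM in NSPs, at 2.11, 2.18 and 1.87 CPM at 24 h, at 7.86, 11.9 and 12.0 CPM at 72 h and at 7.499, 8.54 and 8.09 CPM at 1 week. With TNF it was at 4.09, 3.798 and 4.24 CPM at 24 h and at 18.9, 8.93 and 7.37 CPM at 72 h. The 3 highest groups, 1 week, 72 h and 72 h TNF, overlapped as neighbours.

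Cd59a, which guards the cell's own membrane, was at 0.127, 0.165 and 0.171 CPM in NSPs and at 6.57, 6.76 and 5.86 CPM at 24 h. It was at 16.6, 17.2 and 24.0 CPM at 72 h and at 20.6, 19.5 and 20.6 CPM at 1 week. With TNF it was at 4.22, 3.05 and 3.06 CPM at 24 h and at 2.81, 8.98 and 7.75 CPM at 72 h. Of the 6 genes that passed the filter, it alone had a higher mean without TNF than with it at both times. The order ran from NSPs over 24 h TNF, 24 h, 72 h TNF and 72 h to 1 week. Among neighbours in it, 24 h overlapped 72 h TNF and 72 h overlapped 1 week. The libraries of 72 h TNF also overlapped those of 24 h TNF.

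The first comparison asked how the genes changed as NSPs left proliferation and differentiated without TNF. All 6 tested genes were higher at 24 h than in NSPs and higher again at 72 h than at 24 h, with no overlap between the libraries in either step. Of all 20067 genes, 31.8% lay higher without overlap in the first step, 21% in the second and 7.4% in both. At 24 h against NSPs C4b rose by 2.20 ± 0.44 on the log2 scale (edgeR adjusted p = 0.000436) and Serping1 by 1.51 ± 0.36 (adjusted p = 0.00197). Of all genes tested, 52.7% were called in this step, 27.2% higher and 25.5% lower, so that a call alone was common.

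C3, C1ra, C1s1 and Cd59a were below the filter's cutoff of 0.595 CPM in all 3 NSP libraries and passed the filter through later groups, so that a difference from NSPs was partly fixed by the filter, and the count of 6 is no result. Their ratios of summed counts at 24 h over NSPs, with 95% counting intervals (exact binomial), were 19.3 (9.51 to 45.7) for C3, 5.26 (2.27 to 14.2) for C1ra, 6.26 (3.26 to 13.2) for C1s1 and 41.6 (20.8 to 97.3) for Cd59a. The value for C3 leaned on single libraries: its log2 change was 4.26 ± 1.00, 3.20 without 24 h replicate 3 and 6.45 without NSP replicate 1. That for C1ra was 2.34 ± 0.59, and 3.42 without NSP replicate 2.

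From 24 h to 72 h the largest log2 changes were those of the central components, though differences between genes were not tested. C3 rose by 5.22 ± 0.57 on the log2 scale, 37.2-fold (edgeR adjusted p = 2.95e-06), and by 6.28 without 24 h replicate 3. C4b rose by 3.93 ± 0.44, 15.3-fold (adjusted p = 4.10e-06). The proteases followed, C1s1 with 3.16 ± 0.37 and C1ra with 2.88 ± 0.37, and the regulators had the smallest values, Serping1 with 2.36 ± 0.30 and Cd59a with 1.59 ± 0.28 (adjusted p = 0.000371). All 6 tested genes were called higher in this step, against 12.2% of all genes (24.8% in either direction, 12.6% lower), and each of the 6 calls held in every alternative fit in which the gene was tested.

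Between 72 h and 1 week the 2 central components fell. C4b fell by 5.05 ± 0.47 on the log2 scale, 33.1-fold (edgeR adjusted p = 4.40e-06), from 497 ± 126 to 15.1 ± 5.18 CPM. C3 fell by 3.65 ± 0.51, 12.5-fold (adjusted p = 0.000201), from 116 ± 12.1 to 9.32 ± 2.37 CPM. The other 4 tested genes were not called: C1ra changed by 0.13 ± 0.29 (adjusted p = 0.874), C1s1 by -0.59 ± 0.31 (adjusted p = 0.309), Serping1 by -0.40 ± 0.26 (adjusted p = 0.462) and Cd59a by 0.07 ± 0.26 (adjusted p = 0.932). Of all genes tested, 6.63% were called in this step, 3.96% lower and 2.68% higher. In bulk RNA, fewer cells of a type and less RNA per cell cannot be told apart, here and in all other comparisons.

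**Figure D3:**
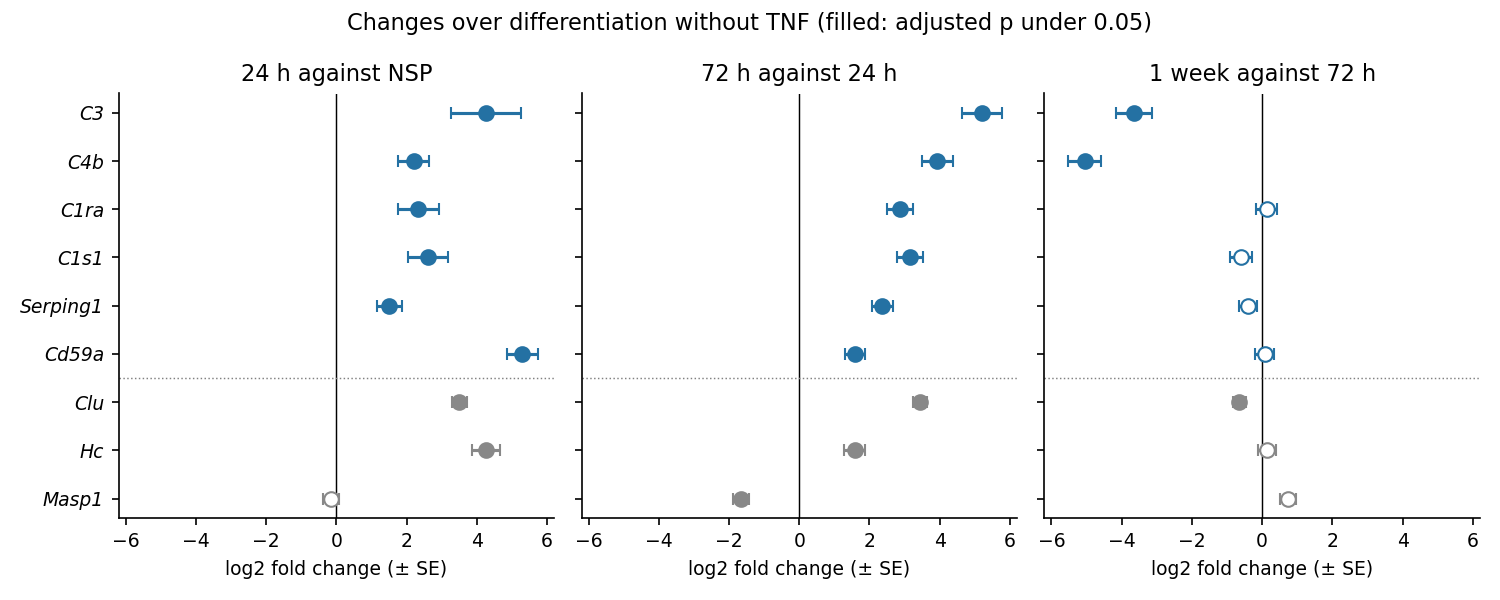
Log2 fold changes (± SE, n = 3 libraries per group) for 3 steps of differentiation without TNF, with the complement genes of this report in blue and 3 other complement genes in grey. The first 2 panels have all 6 tested genes to the right of 0, and in the last panel C3 and C4b lie far to the left at -3.65 and -5.05.

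Over the whole course, 1 week against NSPs, all 6 tested genes were higher (29.6% of all genes were called higher and 29.1% lower, 58.6% in all), with the same limit as above for the 4 genes below the cutoff in NSPs. Serping1 rose by 3.47 ± 0.33 on the log2 scale (edgeR adjusted p = 6.01e-08). C4b rose by only 1.08 ± 0.44 (adjusted p = 0.0415, with a range of 0.0156 to 0.169 over 13 alternatives). That call was lost with DESeq2 (adjusted p = 0.0555) and without NSP replicate 1 (0.160), NSP replicate 3 (0.0578), 1 week replicate 2 (0.0564) or 1 week replicate 3 (0.169), and with a replicate block that left 72 h replicate 3 unpaired (0.0548). The ratio of summed counts at 1 week over NSPs was 130 (66.0 to 303) for Cd59a, 58.5 (29.5 to 136) for C3, 42.9 (20.6 to 108) for C1ra and 37.5 (20.8 to 75.7) for C1s1. Here too single NSP libraries moved the values. The log2 change of C3 was 5.83 ± 0.86, 8.03 without NSP replicate 1 and 5.24 without NSP replicate 3, and that of C1ra was 5.35 ± 0.46, and 6.42 without NSP replicate 2. That of C1s1 was 5.18 ± 0.48, and 5.77 without NSP replicate 1.

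The second comparison asked what TNF changed at 24 h of differentiation. Both protease genes rose. C1s1 was at 8.12 ± 4.26 CPM against 1.37 ± 0.515 CPM, a log2 change of 2.58 ± 0.37 (edgeR adjusted p = 0.000408), and at 2.08 ± 0.32 without replicate 1 of the TNF groups (adjusted p = 0.000672). C1ra was at 3.45 ± 1.45 CPM against 0.721 ± 0.0804 CPM, a log2 change of 2.26 ± 0.38 (adjusted p = 0.00156), and at 1.85 ± 0.34 without these 2 libraries (adjusted p = 0.00351). These were 2 of the 5 genes tested, since C3 was not tested and Cfb did not pass the filter, while 3.5% of all genes were called, 2.18% higher and 1.32% lower.

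C3, given as a description, was at 183 ± 150 CPM with TNF against 3.23 ± 3.06 CPM without, a log2 difference of 5.87 ± 0.58, or 4.96 ± 0.41 without replicate 1 of the TNF groups. That library alone was at 356 CPM, and the lowest of the 3 TNF libraries was still above the highest untreated one. The log2 difference was 6.91 ± 0.64 without 24 h replicate 3, the highest of the untreated libraries.

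The remaining 3 genes did not pass at 24 h. C4b differed by 1.11 ± 0.41 on the log2 scale (edgeR adjusted p = 0.179) and its groups overlapped, with 0.28 ± 0.26 left without replicate 1 of the TNF groups. Serping1 differed by 0.97 ± 0.31 (adjusted p = 0.0994, range 0.0267 to 0.302 over 14 alternatives) and Cd59a by -0.89 ± 0.30 (adjusted p = 0.130, range 0.00451 to 0.301 over 13 alternatives). Neither overlapped between the groups, and of all genes tested 10.7% lay higher and 10.1% lower without overlap. Serping1 passed with the compared groups fitted alone (adjusted p = 0.0416). Without replicate 1 of the TNF groups both passed, Serping1 at 0.96 ± 0.23 (adjusted p = 0.0267) and Cd59a at -1.07 ± 0.20 (adjusted p = 0.00451), so that 4 of the 5 genes were then called, beside 3.65% of all genes in that fit. The median over the 5 genes was 1.11, against -0.01 for all genes.

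The third comparison was TNF at 72 h. Proteases and membrane regulator moved in opposite directions. C1s1 rose by 1.62 ± 0.30 on the log2 scale, from 12.05 ± 2.74 to 37.1 ± 8.84 CPM (edgeR adjusted p = 0.00153), and Cd59a fell by 1.57 ± 0.28, from 19.3 ± 4.13 to 6.52 ± 3.27 CPM (adjusted p = 0.00105). C1ra rose by 1.09 ± 0.29, from 5.29 ± 0.863 to 11.3 ± 3.13 CPM (adjusted p = 0.0226, range 0.00523 to 0.116 over 13 alternatives). Of the 5 genes tested, 2 were called higher and 1 lower, beside 4.35% and 5.21% of all genes (9.56% in either direction).

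Without replicate 1 of the TNF groups C1s1 stood at 1.43 ± 0.25 (adjusted p = 0.000735), Cd59a at -1.21 ± 0.18 (adjusted p = 0.000190) and C1ra at 0.83 ± 0.25 (adjusted p = 0.0479). The call for C1ra was lost without 72 h TNF replicate 1 alone (adjusted p = 0.116), without 72 h replicate 1 (0.0541) and without 72 h replicate 2 (0.0860). C3, again as a description, was at 1421 ± 88.9 CPM with TNF against 116 ± 12.1 CPM, a log2 difference of 3.61 ± 0.49, and 3.55 ± 0.35 without the 2 libraries.

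C4b lay the other way from C3 at 72 h. Its 3 TNF libraries were all below the 3 untreated ones, a position that 13.4% of all genes tested shared. They were at 207 ± 92.8 against 497 ± 126 CPM, a log2 difference of -1.26 ± 0.40 that did not pass (edgeR adjusted p = 0.0514, range 0.000351 to 0.208 over 14 alternatives). It passed without replicate 1 of the TNF groups, at -1.70 ± 0.27 (adjusted p = 0.000351), a fit in which 4 of the 5 genes and 8.77% of all genes were called, and with a filter of only 5 counts in total (0.0412), with the compared groups alone (0.0241), with a replicate block (0.0485) and without 72 h TNF replicate 1 (0.0209). Serping1, at 11.7 ± 6.26 against 10.6 ± 2.35 CPM, differed by 0.15 ± 0.26 (adjusted p = 0.765), with the sign turned to -0.39 ± 0.20 without those 2 libraries. The median over the 5 genes was 0.15, and that over all genes -0.01.

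**Figure D4:**
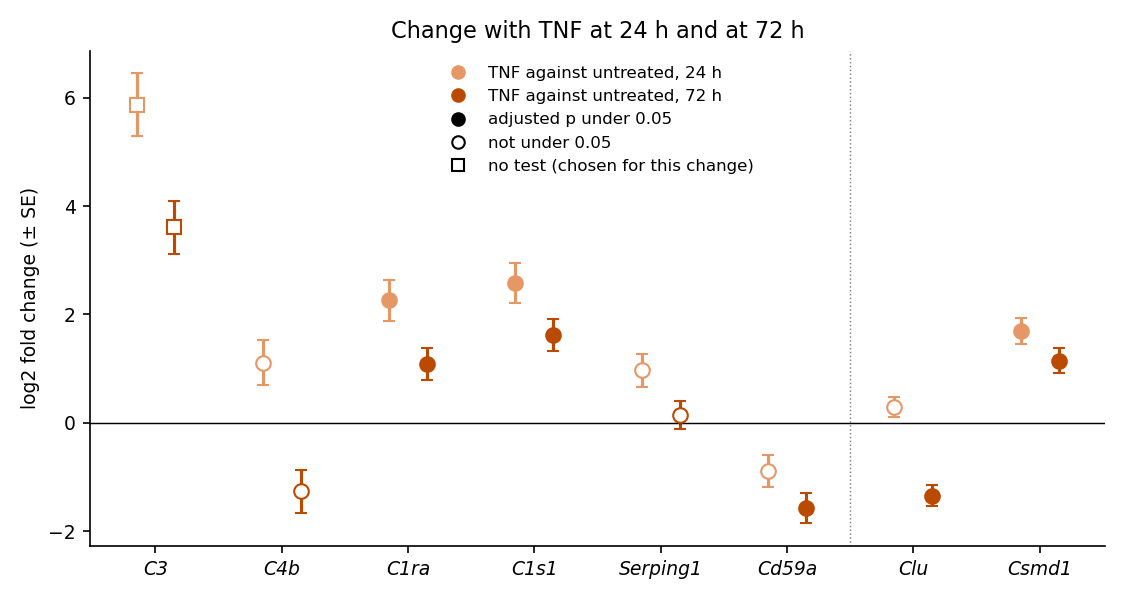
Log2 fold change with TNF (± SE) at 24 h (light) and 72 h (dark) for the 6 genes that passed the filter, left of the dotted line, and for Clu and Csmd1, with filled circles for an adjusted p under 0.05, open circles otherwise and open squares for C3, which was not tested. C1ra and C1s1 are above 0 at both times, Cd59a is below, and C4b goes from 1.11 at 24 h to -1.26 at 72 h.

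Whether the change with TNF differed between 24 h and 72 h was tested as an interaction. By edgeR none of the 5 tested genes was called (0.458% of all genes were, 0.135% with a higher and 0.324% with a lower change), and none by DESeq2, while 2 of the 5, C4b and C1ra, had an unadjusted p under 0.05. C4b was nearest, with a change lower by 2.37 ± 0.57 on the log2 scale at 72 h than at 24 h (adjusted p = 0.0803, range 0.0153 to 0.222 over 20 alternatives). It was called without replicate 1 of the TNF groups (-1.98 ± 0.37, adjusted p = 0.0153), without 24 h TNF replicate 2 (-2.70, adjusted p = 0.0323) and without 72 h TNF replicate 1 (-2.79, adjusted p = 0.0290). Serping1 was called only in the last of these (-1.34, adjusted p = 0.0396), against -0.82 ± 0.40 in all libraries (adjusted p = 0.514). Without replicate 1 of both TNF groups Serping1 was at -1.35 ± 0.31 (edgeR adjusted p = 0.0532). C3, untested, had a value of -2.26 ± 0.69, which was -1.41 ± 0.53 without replicate 1 of the TNF groups, -1.32 without 24 h TNF replicate 1 alone and -3.29 without 24 h replicate 3.

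With TNF present throughout, all 5 tested genes were higher at 72 h than at 24 h, beside 5.38% of all genes (13.3% in either direction, 7.93% lower). C1s1 rose by 2.19 ± 0.31 on the log2 scale (edgeR adjusted p = 0.000169), C1ra by 1.71 ± 0.30 (adjusted p = 0.00107), C4b by 1.56 ± 0.40 (adjusted p = 0.0147), Serping1 by 1.54 ± 0.28 (adjusted p = 0.00126) and Cd59a by 0.91 ± 0.30 (adjusted p = 0.0476). Here same-numbered libraries shared deviations from their group means, which cannot be told apart from the outlying replicate 1 of both groups. With the number as a block Cd59a no longer passed, at 0.87 (edgeR adjusted p = 0.0733, range 0.000106 to 0.237 over 13 alternatives). Its call was also lost without replicate 2 or 3 of either TNF group (adjusted p from 0.154 to 0.237) and with the compared groups alone (0.210), and that of C4b without 24 h TNF replicate 2 (0.0786), 24 h TNF replicate 3 (0.0840) or 72 h TNF replicate 1 (0.0703) or with the compared groups alone (0.108), in a range of 0.000101 to 0.108 over 14 alternatives. The change of C4b was 2.42 without 24 h TNF replicate 1 (adjusted p = 0.000101). Without replicate 1 of both TNF groups all 5 were called, beside 16.9% of all genes. The log2 changes were then 2.52 for C1s1, 1.87 for C1ra, 1.96 for C4b, 1.03 for Serping1 and 1.46 for Cd59a. C3 differed by 2.96 ± 0.47, or 3.83 ± 0.41 without these 2 libraries, as a description.

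C3 and C4b did not keep 1 ratio across the groups. Per kilobase of exon, C3 was at 0.111 ± 0.105 of the level of C4b at 24 h, 0.266 ± 0.0525 at 72 h and 0.711 ± 0.211 at 1 week. With TNF it was at 2.84 ± 0.323 times the level of C4b at 24 h and at 5.37, 10.2 and 9.54 times at 72 h. C4b was therefore the higher of the pair in all 9 differentiated libraries without TNF and C3 in all 6 with it. C3 was chosen for its rise with TNF, so its place above C4b there is a description and was not tested. In NSPs, where C3 had at most 7 counts in a library, the ratio is not read. The length of C4b was not corrected for the 22.7% of its stretches that occur also in C4a.

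**Figure D5:**
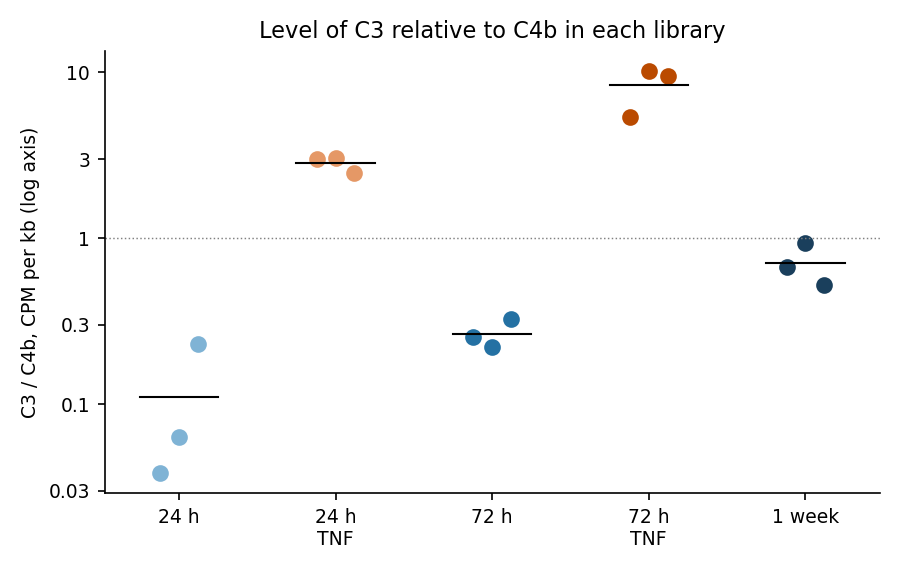
Ratio of C3 to C4b (CPM per kilobase of exon, log axis) in each differentiated library, with replicates 1, 2 and 3 from left to right and a line at the mean. The 6 TNF libraries lie above 1, from 2.46 to 10.2, and the 9 untreated libraries below it, from 0.0384 to 0.939. C3 was chosen for its rise with TNF, so the ratio is a description.

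Of the other 50 complement genes, 18 passed the filter and were tested. Among the 32 that did not, 31 were at or below 1 CPM in every library. The genes of 6 recognition proteins of the classical and lectin pathways (C1qa, C1qb, C1qc, Mbl1, Mbl2 and Fcnb) were at 0 in all 18 libraries, so that the genes of C1r and C1s were counted here without those of C1q, their partner in the C1 complex. Itgb2, a subunit of the complement receptors of white blood cells, was the untested gene that reached farthest, to 2.20 CPM in replicate 1 of 24 h TNF, with 0.223 and 0.530 CPM in replicates 2 and 3. Its mean was 0.985 CPM with TNF against 0.0729 CPM without at 24 h, and 0.538 against 0.148 CPM at 72 h, where replicate 1 with TNF was at 1.01 CPM and the groups overlapped. The part of white blood cells in the results with TNF was not tested.

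The paralogs that share stretches with the 7 genes were low. C4a was between 1.04 and 2.44 CPM in all libraries, and it rose only from NSPs to 1 week, by 0.82 ± 0.29 (edgeR adjusted p = 0.0220). C1rb had at most 1 count in a library, C1s2 was at most at 0.818 CPM and Cd59b at most at 0.488 CPM. None of the 3 was called in a comparison, and only C1s2 of them was tested.

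Among initiation genes, Masp1, a lectin-pathway protease, went against C1ra and C1s1. It was at 51.1 ± 4.04 CPM in NSPs and 46.0 ± 3.02 CPM at 24 h, and fell by 1.66 ± 0.23 on the log2 scale to 14.6 ± 1.74 CPM at 72 h (edgeR adjusted p = 3.68e-05). C1rl, a C1r-like gene beside C1ra, was below the filter's cutoff in all NSP libraries (0.153 ± 0.163 CPM) and at 0.856 ± 0.138 CPM at 24 h, a difference that the filter partly fixed. From 24 h to 72 h it rose by 1.31 ± 0.36 (adjusted p = 0.0118), and with TNF it differed by -0.11 ± 0.40 at 24 h (adjusted p = 0.948) and by -0.22 ± 0.33 at 72 h (adjusted p = 0.718). Masp2, a protease of the same pathway, was higher at 1 week than in NSPs by 0.93 ± 0.34 (adjusted p = 0.0241). Colec12, a collectin receptor, rose from 24 h to 72 h by 2.28 ± 0.54 (adjusted p = 0.00427).

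Among later components, Hc, the gene of C5, which the C3-containing enzymes cut, was at 0.471 ± 0.176 CPM in NSPs and rose to 9.09 ± 1.17 CPM at 24 h and 27.2 ± 5.08 CPM at 72 h, with 29.9 ± 2.52 CPM at 1 week. In TNF libraries Hc was at 10.05 ± 1.13 CPM at 24 h and 16.7 ± 8.25 CPM at 72 h, and neither TNF comparison called it. C2 was at 2.09, 1.10 and 1.31 CPM in NSPs and at 0.557 ± 0.203 CPM at 24 h, with the shared exons described for Cfb. NSPs were its only group with all libraries over the filter's cutoff, so that its fall from NSPs was partly fixed by the filter. Cfp, the gene of properdin, which stabilizes the alternative-pathway enzyme, stayed between 5.18 and 6.81 CPM in the means of all 6 groups and was not called. C8g, the gene of a chain of C8, was at 2.57 to 3.42 CPM in the group means and was not called either.

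Clu, the gene of clusterin, a soluble inhibitor of the terminal pore that astrocytes secrete, was called in all 8 comparisons but that of TNF at 24 h. NSPs had 6.45 ± 2.03 CPM, and Clu rose to 73.6 ± 6.33 CPM at 24 h and 802 ± 129 CPM at 72 h, and stood at 510.4 ± 31.4 CPM at 1 week. Its fall in that last step was 0.65 ± 0.18 (edgeR adjusted p = 0.0386). Most fits without 1 library called only 1 of the other complement genes in that step, not 2. With TNF Clu was at 90.3 ± 9.32 CPM at 24 h, a log2 difference of 0.29 ± 0.19 (edgeR adjusted p = 0.555), and at 318 ± 65.6 CPM at 72 h, a fall by 1.34 ± 0.19 (adjusted p = 0.000112), or by 1.18 without replicate 1 of the TNF groups. Clu was the only complement gene tested whose change with TNF was called different between the times.

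Membrane regulators moved in both directions. Csmd1, which encodes a large membrane inhibitor of complement, rose with TNF at 24 h from 69.0 ± 9.10 to 223 ± 89.5 CPM, by 1.69 ± 0.24 on the log2 scale (edgeR adjusted p = 0.000308), and at 72 h by 1.15 ± 0.23 (adjusted p = 0.00315). Without replicate 1 of the TNF groups its changes were 1.31 ± 0.19 and 1.05 ± 0.19, both called. Susd4, another membrane inhibitor, fell with TNF at 72 h by 1.39 ± 0.25, from 4.82 ± 1.02 to 1.84 ± 0.0616 CPM (adjusted p = 0.00111), and by 1.38 without replicate 1 of the TNF groups. Cd46 rose at 24 h by 1.14 ± 0.13 from NSPs (adjusted p = 1.47e-06), and Cr1l, which encodes the rodent regulator Crry, stayed between 45.8 and 61.2 CPM in the group means and was called in no comparison. Cd55, which speeds the decay of the C3-cutting enzymes, rose from 24 h to 72 h by 1.44 ± 0.45 (adjusted p = 0.0238), and Cr2, the gene of a receptor for C3 fragments, by 1.44 ± 0.28 (adjusted p = 0.000766). C3ar1, the gene of the receptor for the small C3 fragment, was at 0.591 CPM at 1 week against 0.178 CPM in NSPs, where all its libraries were below the filter's cutoff. It passed that filter through 24 h TNF, its only group with all libraries over the cutoff.

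Counted over the 18 tested genes, 1 was called higher under TNF at 24 h, where 3.5% of all genes were called. For TNF at 72 h the counts were 1 higher and 2 lower, beside 9.56% of all genes called. Against NSPs 6 were higher and 2 lower at 24 h, beside 52.7% of all genes called. At 1 week against NSPs these counts were 10 and 3, beside 58.6%. The counts against NSPs include C2, with the filter limit given for it, C1rl, Cd55 and C3ar1, which were below the filter's cutoff in all NSP libraries, and Hc, which was over it in 1 of them. From 24 h to 72 h 6 were higher and 1 lower without TNF (24.8% of all genes called), and 4 higher and 1 lower with it (13.3%). Between 72 h and 1 week 2 were lower, Clu and Csmd1 (6.63%). Their medians were 0.17 and -0.08 for TNF at 24 h and 72 h, 0.22 for 24 h against NSPs and 0.23 for 72 h against 24 h, beside -0.01, -0.01, 0.06 and -0.01 for all genes.

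The likeness of patterns over the 18 libraries was described by Pearson's r of log2 CPM among 16442 tested genes with a mean of at least 1 CPM. These libraries share the large change over differentiation, so high values are common. C1ra and C1s1 had an r of 0.970 with each other, rank 3 of 16442 in both directions, and C3 and C1s1 one of 0.945. C1s1 was most like Lbp (r = 0.981), which encodes the lipopolysaccharide-binding protein, with mean levels of 1.54 CPM at 24 h, 28.9 CPM at 24 h with TNF, 19.7 CPM at 72 h, 57.0 CPM at 72 h with TNF and 11.5 CPM at 1 week. The other close gene was Erich2 (r = 0.972).

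C3 was most like Il6ra (r = 0.965), the interleukin-6 receptor gene, then Apobec1 (r = 0.961) and H2-D1 (r = 0.958), a major histocompatibility class I gene that was at 5.03 CPM at 24 h and at 42.8 CPM at 72 h with TNF. C4b was most like Gabrb1 (r = 0.939) and Rnase1 (r = 0.934), and its r with C3 was 0.802. For C1ra, Gm26578 and Ahnak came first (both r = 0.976). Serping1 was most like 2900011O08Rik and Ccdc153 (both r = 0.972) and Daw1 (r = 0.963).

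Cd59a had the highest values, with Slc39a12 (r = 0.995), Wdr47 (r = 0.992) and Crb2 (r = 0.991). Slc39a12, a zinc transporter gene, was at 49.9 CPM in NSPs, 287 CPM at 24 h, 582 CPM at 72 h, 296 CPM at 72 h with TNF and 569 CPM at 1 week. The r of Cd59a with C3 was 0.537 and that with C4b 0.544, the lowest pairs among the 6 genes.

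Between TNF-treated and untreated cells of the same time, of the nearest tested protein-coding genes on each side, only C1ra and C1s1, which are each other's neighbour 6902 bases apart, and Tnxb, 8565 bases from C4b, were called. Tnxb rose with TNF by 2.92 ± 0.70 on the log2 scale at 24 h (edgeR adjusted p = 0.0234), a call lost without replicate 1 of the TNF groups (1.79 ± 0.58, adjusted p = 0.112), and with TNF at 72 h it differed by 1.30 ± 0.64 (adjusted p = 0.214). Gpr108, 6499 bases from C3, differed with TNF by 0.17 ± 0.14 at 24 h and by -0.08 ± 0.14 at 72 h, while without TNF it rose by 0.64 ± 0.14 from 24 h to 72 h (adjusted p = 0.00244).

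The labelled cell type was checked against marker genes. All 9 astrocyte markers reached 1 CPM, with summed levels of 5317 to 7606 CPM at 72 h and 3321 to 4694 CPM at 72 h with TNF, where 4 of the 9 fell, Gfap by 2.31 ± 0.56 on the log2 scale (edgeR adjusted p = 0.0128). Gfap was at a mean of 2429 CPM at 72 h and 63.3 CPM at 1 week, and the sum of the 9 at 2651 to 3170 CPM at 1 week, beside the falls of C3 and C4b. Slc1a3, a glutamate transporter, was at 2200 and 2064 CPM in these groups, and Gpld1 was the only one of the 9 with a higher mean at 1 week, 209 against 67.6 CPM. Their part in these results was not tested. Neuronal Map2 was at 1529 to 1868 CPM in the means of all groups and Tubb3 at 5.05 to 37.4 CPM. The other 4 neuron markers were low, with means of 0 to 5.21 CPM for Dcx, 0.357 to 2.66 CPM for Rbfox3, 0.794 to 1.65 CPM for Syt1 and 0.114 to 1.35 CPM for Snap25. Rbfox3 fell with TNF at 72 h by 1.86 ± 0.45 on the log2 scale (edgeR adjusted p = 0.0124), from 1.33 to 0.357 CPM, a call that was lost without replicate 1 of the TNF groups (-1.52 ± 0.49, adjusted p = 0.0597). Of the oligodendrocyte lineage, Mbp, Mog and Mag were below 1 CPM in the means. With TNF at 72 h, Cnp fell from 451 to 219 CPM while Cspg4 was at 38.1 against 9.46 CPM (edgeR adjusted p = 0.00214 and 0.00326). Both calls held without replicate 1 of the TNF groups. The part of neurons and of this lineage in the results was not tested.

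Microglia, which in brain tissue are a main source of complement, were low or absent by their markers. Of 14 markers, 4 were at 0 in all libraries (C1qa, C1qb, C1qc and Ctss), Tyrobp, Trem2 and Ptprc had at most 3 counts in a library, and 4 reached 1 CPM in a library. Their summed level was 5.58 to 6.43 CPM at 24 h, 8.36 to 18.6 CPM at 24 h with TNF, 4.07 to 6.12 CPM at 72 h and 5.33 to 12.7 CPM at 72 h with TNF. The one marker of these called with TNF was Cd68, a lysosomal gene, which at 24 h was at 8.20 CPM with TNF against 1.98 CPM (log2 change 2.06 ± 0.54, edgeR adjusted p = 0.0409). The part of such cells in the rise of the complement genes was not tested. Of 9 fibroblast and mural markers, with summed levels of 402 to 496 CPM at 24 h and 97.3 to 531 CPM at 24 h with TNF, mostly from Acta2, only Col3a1 rose with TNF at 24 h (to 1.44 CPM), and of 6 endothelial markers Kdr fell with TNF at 72 h by 2.27 ± 0.46, from 5.75 to 1.20 CPM (adjusted p = 0.00318), while Cdh5 and Cldn5 had at most 1 count in a library. All the marker calls given here for Gfap, Cd68, Col3a1 and Kdr held without replicate 1 of the TNF groups, with log2 changes of -3.45, 1.24, 2.23 and -1.80.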

How the data were processed

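Per the methods, total RNA was depleted of ribosomal RNA, made into stranded libraries and read as pairs of 75 bases. The authors trimmed reads (FastQC, Trim Galore), aligned them to mm10 with STAR and counted them per gene with featureCounts, and deposited raw counts. Tool versions and the strand setting of the counting are not given in the sources used here. From the deposited counts, genes were filtered with filterByExpr by group and tested with edgeR 4.0.16 (TMM, quasi-likelihood, 6 groups, 18 libraries). DESeq2 1.42.0 was an alternative, beside other filters and scalings, the compared groups alone, a replicate block and leaving out libraries. Leaving out replicate 1 of both TNF groups was chosen after seeing the data. The tests were also run on data simulated from these means, with the same spread for every gene and no outlying library.

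The genes named are the 7 members, their paralogs, other complement genes that were called or had a mean of at least 1 CPM, the nearest tested protein-coding genes, the 3 genes most alike each member (1 of those for C4b is not reported here), Nfkbia and cell type markers. Mbl1, Mbl2, Fcnb, Itgb2 and Gm20547 lie outside that rule and were named after their values were seen. Members and lists were chosen with earlier results of these data known, so no p was adjusted over a list alone. The label of the column used for 72 h replicate 3 differed from its sample title by a digit.

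Same-numbered libraries were checked for shared deviations from their group means. Only 72 h TNF and 24 h TNF passed, with correlations of 0.255 to 0.291, and the blocked value is printed there. Replicate 1 stood apart in both groups, so that this sharing and a true pairing cannot be told apart. No 2 libraries of a group agreed within sampling noise. The protein comparison planned for the paralogs was not run.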

Additional observations from a re-analysis of the deposited data

Results flagged for a closer look

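Of the complement genes tested, Clu was singled out because its change with TNF differed between the times by a test of the difference itself. The interaction was -1.63 ± 0.26 on the log2 scale (edgeR adjusted p = 0.00775), with a change of 0.29 ± 0.19 at 24 h and of -1.34 ± 0.19 at 72 h. The 3 TNF libraries lay above the 3 untreated ones at 24 h and below them at 72 h. Of all 20067 genes, 10.7% lay higher without overlap with TNF at 24 h and 13.4% lower at 72 h. Without replicate 1 of the TNF groups the interaction was -1.39 ± 0.25 (adjusted p = 0.0126).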

How the results depend on the processing

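Of 652 log2 changes of the 6 tested genes under alternatives, 647 kept their direction, and no called value changed sign. With at least 10 counts required in every library, only C4b and Serping1 of the 7 genes could be tested. Of these 2, 0 were called with TNF at 24 h and 0 at 72 h, 2 at 24 h against NSPs, 2 at 72 h against 24 h, 1 at 1 week against 72 h, 2 at 1 week against NSPs and 2 at 72 h TNF against 24 h TNF, beside 3.53%, 10.5%, 55.7%, 26.2%, 7.69%, 61% and 14.4% of all 14274 genes tested then, in the same order. Under that filter 5, 4 and 7 other complement genes were called at 24 h against NSPs, 72 h against 24 h and 1 week against NSPs, and 56 genes in all for the interaction. Without replicate 1 of both TNF groups, 4 members were called with TNF at 24 h and 1 for the interaction, beside 747 and 138 of all genes. With the compared groups alone, 3 members were called at 72 h TNF against 24 h TNF, with 1 other complement gene, and 4 other complement genes at 1 week against 72 h. All genes called numbered 1277 with TNF at 72 h, 38 for the interaction, 2001 at 1 week against 72 h and 828 at 72 h TNF against 24 h TNF in those fits. DESeq2 called 246 genes for the interaction and 3 other complement genes with TNF at 24 h. For these shifts the cause was not tested. When calls also needed a log2 change of 1 or more, 373 genes were called with TNF at 24 h, 987 at 72 h, 5774 at 24 h against NSPs, 2681 at 72 h against 24 h, 708 at 1 week against 72 h (1 other complement gene), 7020 at 1 week against NSPs and 1340 at 72 h TNF against 24 h TNF.

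Same-numbered libraries shared deviations only between the TNF groups, where the replicate block ended the call of Cd59a (0.87, edgeR adjusted p = 0.0733). Elsewhere libraries share only a number, and the replicate block gave C4b with TNF at 72 h an adjusted p of 0.0485 (-1.33). With 72 h replicate 3 left unpaired in the block, whose column label is in doubt, 986 genes were called with TNF at 72 h, 24 for the interaction, 3286 at 72 h against 24 h and 617 at 1 week against 72 h, with 1 other complement gene.

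Leaving out 1 library at a time gave 361 to 741 genes with TNF at 24 h, 965 to 2922 at 72 h, 25 to 133 for the interaction, 8875 to 10218 at 24 h against NSPs, 3496 to 5200 at 72 h against 24 h, 610 to 1373 at 1 week against 72 h, 10300 to 11553 at 1 week against NSPs and 1233 to 3802 at 72 h TNF against 24 h TNF. Members called ranged from 2 to 3 with TNF at 72 h, 0 to 2 for the interaction, 5 to 6 at 1 week against NSPs and 3 to 5 at 72 h TNF against 24 h TNF. Other complement genes called ranged from 1 to 3 with TNF at 24 h, 1 to 2 at 1 week against 72 h and 1 to 6 at 72 h TNF against 24 h TNF. Depth limits C3, C1ra, C1s1 and Cd59a in NSPs, with at most 7 counts in a library, and Cfb throughout.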
